A study of Mus musculus with 12 samples.

Results

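The mitochondrial ribosomal protein genes are nuclear genes for the protein part of the mitochondrial ribosome. They were taken here as every gene whose symbol begins with Mrpl or Mrps followed by a number and at most 1 letter, with 5 pseudogenes left out, which gave 78 of 50600 annotated genes. Of these, 51 encode proteins of the large subunit and 26 proteins of the small subunit. The remaining gene, Mrps36, carries a ribosomal name, but its protein is now assigned to the 2-oxoglutarate dehydrogenase complex. Mrps18a and Mrps30, named as small subunit genes, are counted with the large subunit, where structures place their proteins.

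The mitochondrial ribosome translates the few messenger RNAs that mitochondrial DNA still encodes, all for subunits of the respiratory chain and ATP synthase. Its RNAs come from mitochondrial DNA, whereas its proteins are made in the cytosol from nuclear genes and imported. Some have counterparts in the bacterial ribosome and the others are specific to mitochondria. Liver cells are rich in mitochondria and depend on this translation for oxidative metabolism.

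Polyadenylated RNA of liver was sequenced in 12 libraries, with 4 libraries in each of 3 groups. All mice were of the Rosa26-LSL-dCas9-p300 strain, which carries at the Rosa26 locus a Cre-dependent fusion of nuclease-dead Cas9 to the acetyltransferase p300, and were about 8 weeks old when injected through the tail vein. The Pdx1 gRNA group received 1e+12 viral genomes per mouse of adeno-associated virus (AAV) carrying a guide RNA (gRNA) against Pdx1, a transcription factor gene of the pancreas. The control gRNA group received the same dose of AAV with a control gRNA, the PBS group received PBS and no virus, and livers were taken 2 weeks later. Neither the source of Cre nor the sex of the mice is stated in the labels. Since these also leave it unsaid whether libraries come from separate mice, the p-values cover spread from library to library, which may be technical.

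Assigned counts per library ran from 13531769 to 18063529 with the Pdx1 gRNA, from 16963079 to 22008046 with the control gRNA and from 11824767 to 17870498 with PBS. Counts of the targeted gene, Pdx1, were 26, 32, 54 and 256 across the 4 Pdx1 gRNA libraries and 2 in control gRNA library 4, and no other library had any. In PBS libraries 2 and 3 there were 2.61 and 3.64 CPM (counts scaled for library size) of Xist, with 80.8 and 70.0 CPM of Ddx3y on the Y chromosome, a male pattern; the other 10 libraries had the female pattern. Calls of the genes named below, and counts for the subunits and most lists, are given both ways where they change without these libraries. The fit without them keeps PBS libraries 1 and 4 only. Against PBS it called 4.5% of all genes higher and 3.4% lower with the Pdx1 gRNA, and 6.91% and 7.05% with the control gRNA. With all libraries these shares were 11.7% and 10.4%, and 16.3% and 15.8%. A call lost in that fit can go with a fold change that hardly moved. Of the 8 hepatocyte markers, none was at 0 in any library, and they summed to between 50190 and 121437 CPM.

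Below, a gene rose, fell or was called if its adjusted p in edgeR's quasi-likelihood test was under 0.05, with Benjamini-Hochberg adjustment over all 15219 genes tested. Log2 fold changes are given ± SE. CPM are scaled by TMM except those of Xist and Ddx3y, which are per total counts. Pdx1 gRNA against PBS and control gRNA against PBS share the 4 PBS libraries, so likeness between their values is not independent. In bulk tissue, fewer cells of a type and less RNA per cell cannot be told apart.

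Promoter sequence was available for 69 of the 78 genes in the RefSeq table (build GRCm38.p6), as the 250 bases before and 50 after each start. Stretches of 120 bases before the start, none of which overlaps an annotated exon, are shown for 4 members that carry a motif shared by many of these promoters. Mrpl32 (chr13:14613038-14613157, minus strand) and Mrpl52 (chr14:54426789-54426908, plus strand) rose against PBS with either virus when all libraries were used, Mrpl45 (chr11:97315596-97315715, plus strand) was called with the control gRNA only, and Mrpl34 (chr8:71464806-71464925, plus strand) was not called (0.36 ± 0.18 with the Pdx1 gRNA and 0.47 ± 0.18 with the control gRNA, log2 fold change ± SE). Without PBS libraries 2 and 3, Mrpl34 rose with both viruses (0.69 and 0.79, edgeR adjusted p = 0.0351 and 0.0169). Capitals mark matches to the NRF1 motif, GCGCA and GCGC separated by any single base, in Mrpl32 and Mrpl45 and to the ETS motif CCGGAAG, on either strand, in Mrpl52 and Mrpl34.
Mrpl32: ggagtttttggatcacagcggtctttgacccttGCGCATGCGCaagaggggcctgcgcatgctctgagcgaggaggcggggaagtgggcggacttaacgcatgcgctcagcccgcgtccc
Mrpl52: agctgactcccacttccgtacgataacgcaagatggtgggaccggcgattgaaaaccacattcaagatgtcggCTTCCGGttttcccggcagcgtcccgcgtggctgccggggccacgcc
Mrpl45: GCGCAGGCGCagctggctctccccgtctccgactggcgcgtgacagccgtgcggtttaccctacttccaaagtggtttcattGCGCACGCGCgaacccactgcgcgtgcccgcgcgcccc
Mrpl34: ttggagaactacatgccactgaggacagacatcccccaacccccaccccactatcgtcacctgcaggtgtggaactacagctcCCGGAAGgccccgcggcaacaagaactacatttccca
NRF1 and ETS-family factors such as GABP are known regulators of nuclear genes for mitochondrial proteins.

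Counted on both strands, the NRF1 motif was present in the promoters of 13 of 69 members (18.8%, exact 95% Clopper-Pearson interval 10.4 to 30.1%). It was present for 5.19% of all 27025 symbols with a promoter and 10.7% of tested genes with one. A member with several starts counted once, if any of them had the motif, and member promoters below are counted this way. The ETS motif was in 26 (37.7%, interval 26.3 to 50.2%), beside 9.93% and 18.8%. The YY1 motif AANATGGCG was in 11 (15.9%, interval 8.24 to 26.7%), beside 2.76% and 5.54%. At least 1 of these motifs was in 42 member promoters (60.9%), beside 15.9% of all and 30.6% of tested genes, and in 1 member matches of different motifs overlapped. The E-box CACGTG, the core site of Myc, was in 5 (7.25%), beside 8.09% and 11.4%, and the SP motif CCCGCCC in 29 (42.0%), beside 27.9% and 49.4%. In this window of 300 bases the member intervals of ETS and YY1 lay above both backgrounds, whereas that of NRF1 held the share of tested genes. E-box and SP shares were not above those of tested genes. In a shorter window, 100 bases before the start and 50 after, NRF1 was in 17.4% of member promoters (interval 9.32 to 28.4%). There the interval lay above both backgrounds, 3.97% of all promoters and 8.27% of promoters of tested genes. These intervals cover counting error only. In the 300 bases, 7 of 37 members that rose with the control gRNA against PBS had the NRF1 motif and 14 of 37 the ETS motif. Of those not called, 6 of 31 and 11 of 31 had them. The YY1 motif was in 8 of 37 (21.6%) against 3 of 31 (9.68%), the E-box in 4 of 37 against 1 of 31 and the SP motif in 16 of 37 against 13 of 31. No test of these differences was made, and a match to these letters is not evidence of binding.

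Compared with all genes tested, the members had a lower median exon length and more often a close divergent neighbour. Their median exon length was 2089 bases, against 3765 bases over all genes tested. A divergent neighbour, starting within 1000 bases on the other strand, was found for 20 of 77 tested members (26.0%), against 10.6% of tested genes. Mrps12 starts 172 bases from Sars2, which encodes the mitochondrial seryl-tRNA synthetase, and Mrpl43 starts 116 bases from Twnk, which encodes the mitochondrial DNA helicase. The members lay on 17 chromosomes, with the highest number, 11, on chromosome 11.

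Together the members took 0.324 to 0.403% of all counts with the Pdx1 gRNA, 0.349 to 0.410% with the control gRNA and 0.196 to 0.257% with PBS. Each of the 8 virus libraries was above each PBS library. All but 1 member passed the filter on low counts. The exception, Mrpl53, a mitochondria-specific gene of the large subunit on chromosome 6 (mm10, 83109040 to 83109939), had 0, 2, 1 and 0 counts with the Pdx1 gRNA, 0, 0, 1 and 1 with the control gRNA and 0 in each PBS library. Of its exon bases, 87.97% are shared with other genes, mainly the predicted gene Gm42688, which had 15 to 31 counts with the Pdx1 gRNA, 25 to 33 with the control gRNA and 8 to 34 with PBS. Reads that overlapped exons of several genes were not assigned to any, since the counting command in the file headers has no option for it, so the level of Mrpl53 is uncertain.

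Levels between genes were compared per length, as CPM per kilobase of exon averaged over all 12 libraries. Mrps21 was highest at 67.1 CPM per kb, followed by Mrpl14 at 61.9, Mrpl2 at 59.4, Mrpl34 at 58.5 and Mrpl52 at 51.8. Neighbours in this order differed by less than the SD between PBS libraries of either gene. Mrps21, for example, had 66.8 with the Pdx1 gRNA, 81.7 with the control gRNA and 52.9 with PBS. The lowest tested members were Mrps25 at 2.80 CPM per kb, Mrpl33 at 3.17, Mrps35 at 3.42, Mrpl3 at 3.67 and Mrpl48 at 4.01, where neighbours again differed by less than that SD. Exon length is the union of annotated exons, as the files give it. In Mrps25, 69.8% of exon bases are shared with other genes, mainly Nr2c2.

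**Figure D1:**
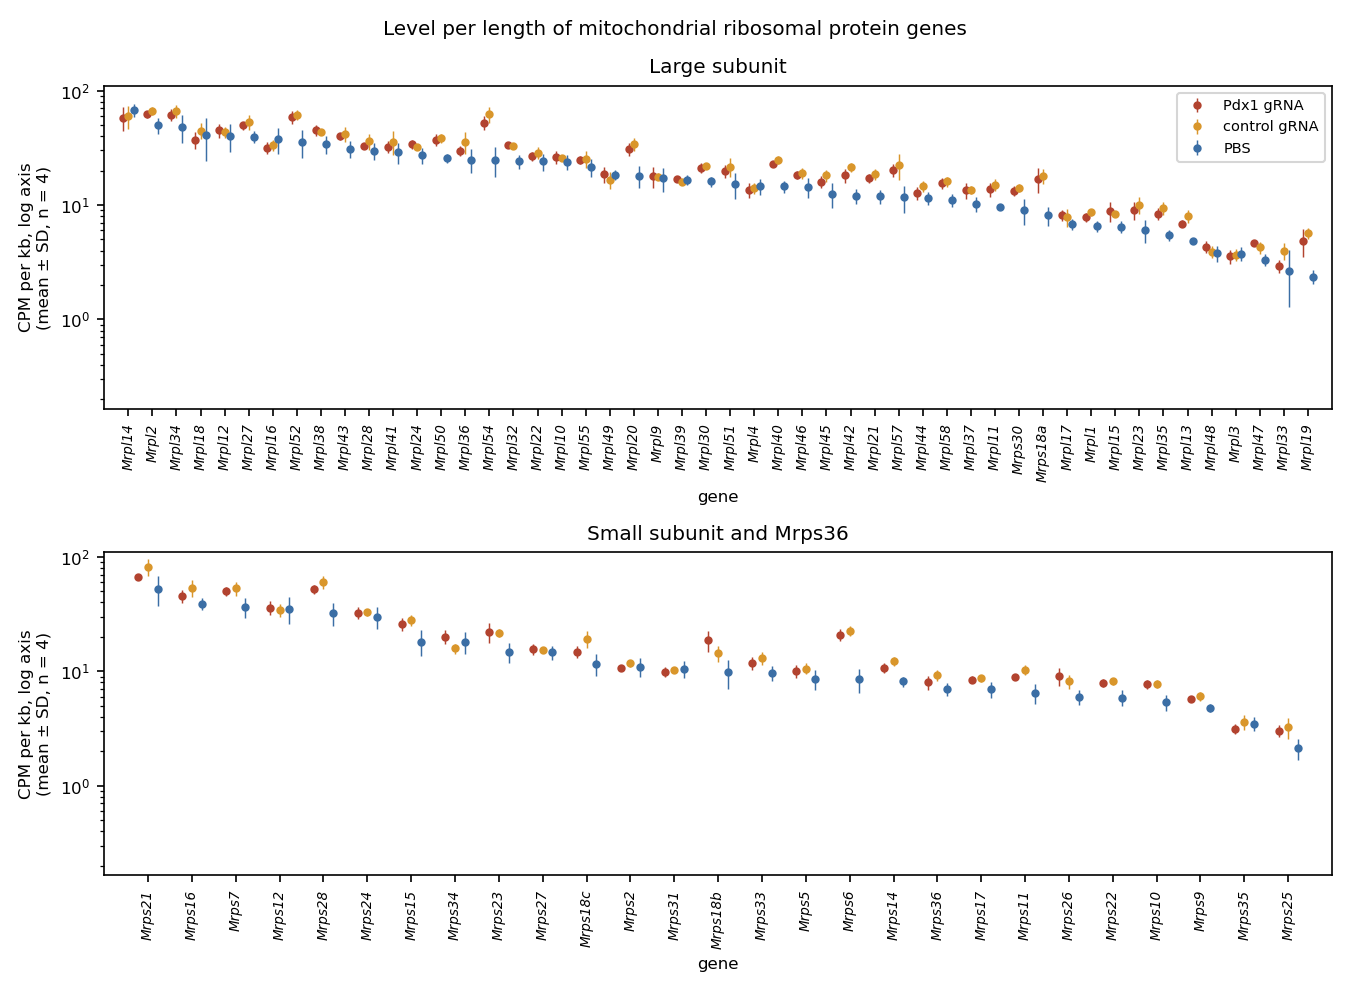
Level of each tested member per length (CPM per kb of exon, log axis, mean ± SD over 4 libraries) in Pdx1 gRNA, control gRNA and PBS livers, ordered by the PBS mean. Members spread from 2.80 to 67.1 CPM per kb averaged over all libraries, and points of the virus groups lie above PBS for most genes.

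Against PBS, the mitochondrial ribosomal protein genes as a group were higher in livers given either virus. With the Pdx1 gRNA, 29 of 77 members rose and none fell, beside 22.1% of all genes called, 11.7% higher and 10.4% lower. With the control gRNA, 41 of 77 rose and none fell, beside 32.1% of all genes called, 16.3% higher and 15.8% lower. The median log2 fold change of members was 0.35 with the Pdx1 gRNA (1.27-fold) and 0.44 with the control gRNA (1.35-fold), beside -0.06 and -0.01 over all genes tested. Estimates were positive for 69 and 68 of 77 members in these comparisons, and no negative one was called. In 31 members all 4 Pdx1 gRNA libraries lay above all 4 PBS libraries, beside 12.7% of all genes, and in 39 members all 4 control gRNA libraries did, beside 16.5%. In no member did all libraries of a virus group lie below all PBS libraries, beside 8.74% of all genes with the Pdx1 gRNA and 12.3% with the control gRNA.

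The counts of calls depended on the libraries used. With PBS libraries 2 and 3 left out, 11 members rose with the Pdx1 gRNA and 25 with the control gRNA, beside 4.5% and 6.91% of all genes called higher in that fit. Of these members, 10 and 22 were among those called with all libraries, and the medians were 0.40 and 0.47. Leaving out 1 library moved the Pdx1 gRNA count to 18 without PBS library 4 and 19 without Pdx1 gRNA library 4, beside 9.47% and 7.41% of all genes called higher. It moved the control gRNA count to 27 without control gRNA library 3, beside 11.2% of all genes. Without PBS library 1 the counts went up, to 40 with the Pdx1 gRNA and 48 with the control gRNA. In that fit 17.8% and 23.2% of all genes were called higher. With library sizes alone in place of TMM, the median of all genes moved to 0.22 and 0.34 and that of members to 0.62 and 0.79, so the members stayed 0.40 and 0.45 above all genes, and none of the 77 estimates was negative. In that fit 56 and 63 members rose, beside 20.1% and 29.1% of all genes called higher. With a smooth trend on gene length removed, 21 and 29 members rose, beside 10.3% and 13.7% of all genes called higher, and Mrpl14, which was not called otherwise in these fits (-0.22 and -0.17), fell by 0.49 and 0.55 (edgeR adjusted p = 0.0293 and 0.0126).

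**Figure D2:**
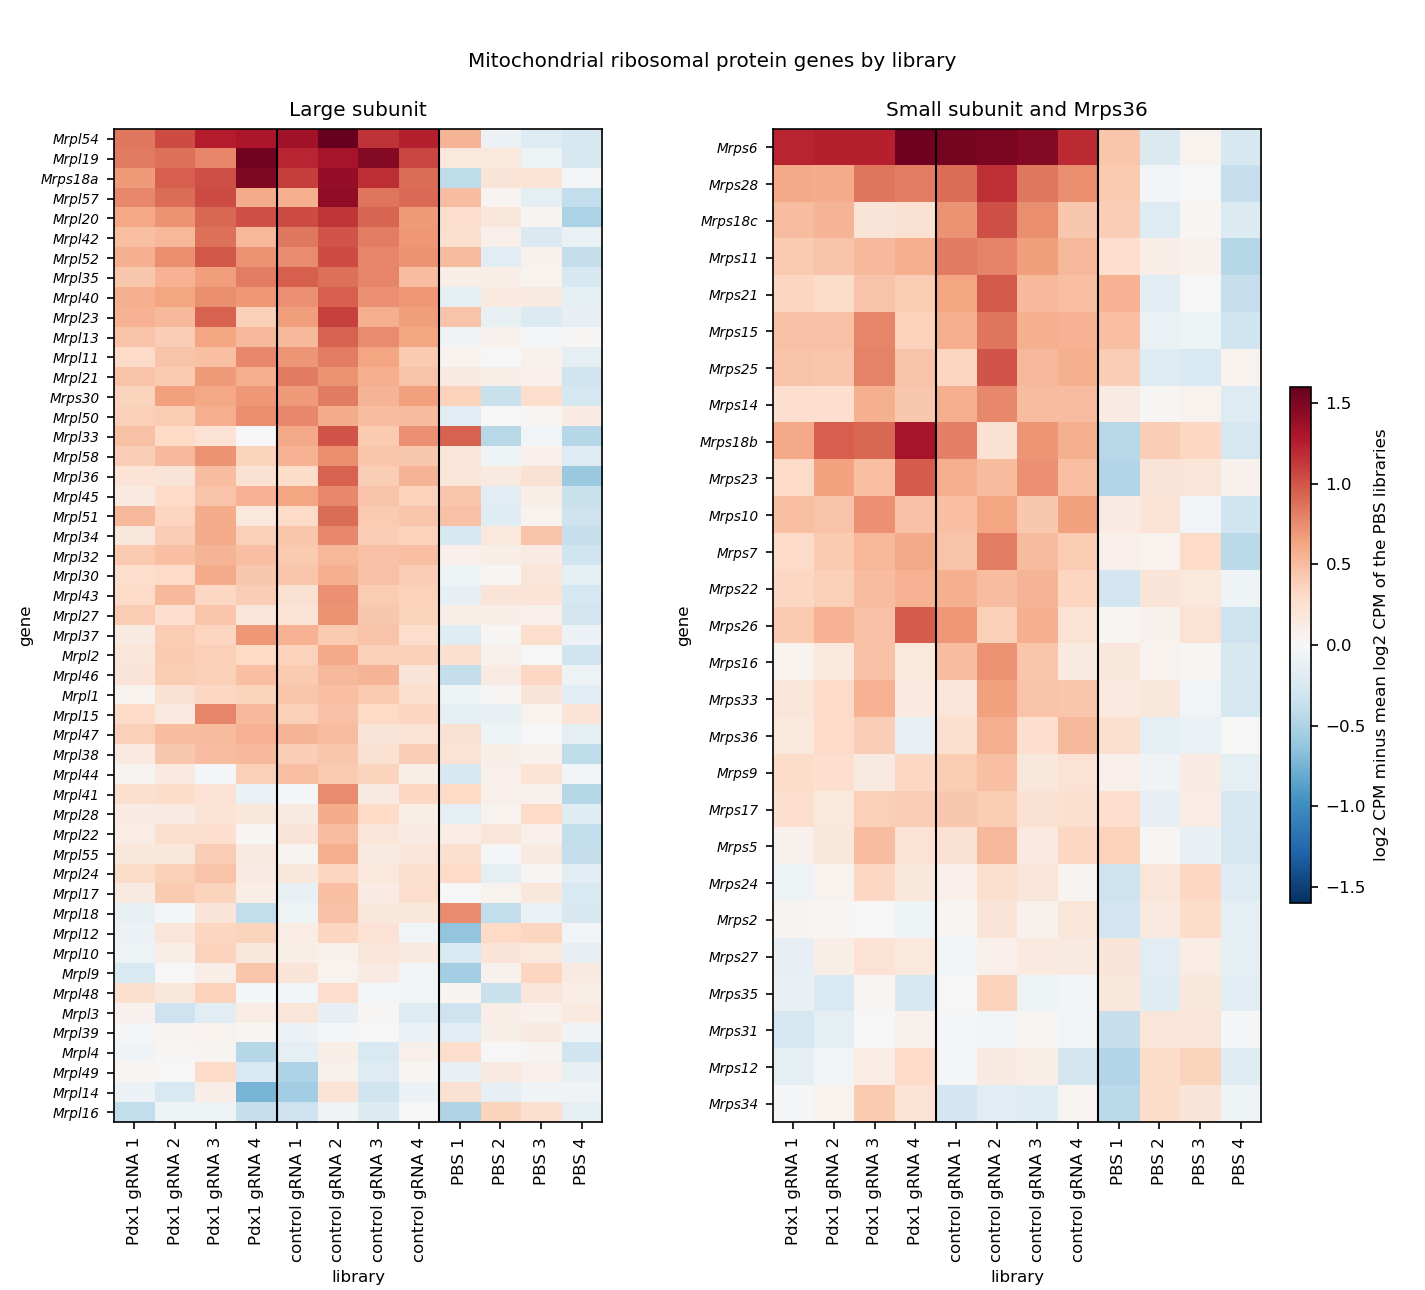
Each tested member by library, as log2 CPM minus the mean log2 CPM of the 4 PBS libraries, with large subunit genes on the left and small subunit genes with Mrps36 on the right, ordered by the fold change of control gRNA against PBS. The 8 virus libraries are above PBS in the upper rows (Mrpl54, Mrpl19, Mrps18a, Mrps6). In the lowest rows (Mrpl14, Mrpl16, Mrps12, Mrps34) the log2 fold changes of control gRNA against PBS were -0.17, -0.18, -0.04 and -0.18, none of them called.

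The large subunit catalyses peptide bond formation. Its members summed to 2123, 2264, 2507 and 2322 CPM in Pdx1 gRNA libraries 1 to 4 and to 2328, 2759, 2341 and 2290 CPM in control gRNA libraries 1 to 4, against 1919, 1821, 1923 and 1583 CPM in PBS libraries 1 to 4. Neither virus group overlapped PBS. Of 50 tested members of the large subunit, 20 (40%) rose with the Pdx1 gRNA and 25 (50%) with the control gRNA. Over all genes, 11.7% and 16.3% were called higher. The median log2 fold changes of these members were 0.35 and 0.43. The counts were 8 and 16 without PBS libraries 2 and 3, beside 4.5% and 6.91% of all genes called higher.

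Mrpl54, a mitochondria-specific protein gene on chromosome 10 (81264713 to 81266934, minus strand), had 35.6, 41.2, 47.7 and 48.9 CPM with the Pdx1 gRNA, 50.5, 63.3, 44.5 and 47.1 CPM with the control gRNA and 29.1, 18.7, 17.2 and 16.7 CPM with PBS. Each virus library was above each PBS library, and PBS library 1 was the highest of its group. Its log2 fold change was 1.08 ± 0.19 for Pdx1 gRNA against PBS (edgeR adjusted p = 0.00269) and 1.32 ± 0.19 for control gRNA against PBS (adjusted p = 6.65e-04). Apba3, whose start lies 26 bases away on the other strand, had 0.24 and 0.27 in these comparisons and was not called.

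Mrpl19, the counterpart of bacterial L19, lies on chromosome 6 (81957851 to 81965958, minus strand). It had 22.8, 23.6, 21.9 and 37.1 CPM with the Pdx1 gRNA, 29.8, 31.9, 35.4 and 26.7 CPM with the control gRNA and 14.3, 14.4, 12.1 and 10.7 CPM with PBS. The groups did not overlap PBS, and Pdx1 gRNA library 4 stood above its group. Mrpl19 rose by a log2 fold change of 1.04 ± 0.18 with the Pdx1 gRNA (edgeR adjusted p = 0.00264) and 1.27 ± 0.18 with the control gRNA (adjusted p = 6.64e-04). Of its exon bases, 36.0% are shared with other genes, mainly Gcfc2.

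Mrps18a is 1 of 3 mammalian genes related to bacterial S18, and its protein sits in the large subunit. On chromosome 17 (46110986 to 46128910, plus strand), it had 47.4, 57.5, 60.1 and 83.4 CPM with the Pdx1 gRNA, 63.8, 78.4, 67.1 and 54.6 CPM with the control gRNA and 22.2, 34.0, 34.4 and 29.2 CPM with PBS. No virus library was as low as the highest PBS library. The log2 fold changes were 1.05 ± 0.19 with the Pdx1 gRNA (edgeR adjusted p = 0.00320) and 1.14 ± 0.19 with the control gRNA (adjusted p = 0.00143).

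Mrpl57, the mitochondria-specific gene formerly named Mrp63, had 44.9, 48.7, 54.2 and 39.7 CPM with the Pdx1 gRNA, 39.0, 70.5, 47.8 and 49.5 CPM with the control gRNA and 37.0, 27.1, 23.9 and 20.03 CPM with PBS. The groups came close, since PBS library 1 had 37.0 CPM and control gRNA library 1 had 39.0 CPM. Mrpl57 rose by 0.79 ± 0.21 and 0.93 ± 0.21 on the log2 scale (edgeR adjusted p = 0.0193 and 0.00604). Without PBS libraries 2 and 3 the estimates were 0.70 and 0.84, and neither call held (adjusted p = 0.129 and 0.0662). With the Pdx1 gRNA the call was also lost without PBS library 3 and without PBS library 4. Its divergent neighbour Ska3, a gene of chromosome segregation that starts 76 bases away, had 1.38 with the Pdx1 gRNA (adjusted p = 0.0542) and rose by 1.76 with the control gRNA (adjusted p = 0.0134, and 0.0808 without PBS libraries 2 and 3).

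Mrpl20, the counterpart of bacterial L20, had 44.8, 47.8, 55.0 and 59.5 CPM with the Pdx1 gRNA, 60.0, 64.5, 55.6 and 46.8 CPM with the control gRNA and 35.3, 33.1, 30.0 and 20.5 CPM with PBS, without overlap between virus and PBS libraries. Its log2 fold changes were 0.80 ± 0.17 and 0.93 ± 0.17 (edgeR adjusted p = 0.00742 and 0.00225). The remaining large rises in this subunit were those of 4 genes, Mrpl42, Mrpl52, Mrpl35 and Mrpl40, with log2 fold changes of 0.60, 0.72, 0.62 and 0.65 with the Pdx1 gRNA and 0.84, 0.79, 0.78 and 0.77 with the control gRNA. In each of them the virus libraries did not overlap PBS: Mrpl40, for example, had 26.0 to 29.5 CPM with the Pdx1 gRNA, 28.5 to 34.0 CPM with the control gRNA and 15.8 to 19.7 CPM with PBS. Without PBS libraries 2 and 3, Mrpl52 had 0.63 with the Pdx1 gRNA and 0.68 with the control gRNA. It was not called in either comparison (adjusted p = 0.108 and 0.0679). In that fit Mrpl42 had 0.52 with the Pdx1 gRNA and was not called there (adjusted p = 0.0863). With the length trend removed, Mrpl40 stayed called at 0.43 and 0.46, and Mrpl52 at 0.52 and 0.49.

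Large subunit members with a further known role differed in their calls. Mrpl11, at the base of the stalk that recruits translation factors, rose by 0.51 ± 0.13 with the Pdx1 gRNA (edgeR adjusted p = 0.0152) and 0.65 ± 0.13 with the control gRNA (adjusted p = 0.00334). Without PBS libraries 2 and 3 the Pdx1 gRNA call of Mrpl11 was lost (adjusted p = 0.0809), as it was without Pdx1 gRNA library 4. Mrpl12, the stalk protein that also binds the mitochondrial RNA polymerase, had 55.8, 68.2, 75.8 and 76.2 CPM with the Pdx1 gRNA, 64.8, 75.3, 70.0 and 58.0 CPM with the control gRNA and 38.6, 74.3, 75.7 and 57.9 CPM with PBS. These values overlapped throughout, and Mrpl12 was not called (0.16 ± 0.20 and 0.12 ± 0.20). It was not called either without PBS libraries 2 and 3 (0.50 and 0.45) or with the length trend removed (-0.03 and -0.14).

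Mrpl58, a peptidyl-tRNA hydrolase that rescues stalled ribosomes, rose by 0.50 ± 0.13 with the Pdx1 gRNA and 0.54 ± 0.13 with the control gRNA (edgeR adjusted p = 0.0190 and 0.00858). Without PBS libraries 2 and 3 it had 0.48 and 0.52, and neither call held (adjusted p = 0.0998 and 0.0638). The Pdx1 gRNA call was also lost without PBS library 2, PBS library 4 or Pdx1 gRNA library 3. Mrpl45, at the peptide exit near the inner membrane, had 0.34 ± 0.17 with the Pdx1 gRNA and rose by 0.53 ± 0.17 with the control gRNA (adjusted p = 0.0335), a call that was lost when any of 7 single libraries was left out and without PBS libraries 2 and 3 (adjusted p = 0.188) or with the length trend removed (adjusted p = 0.0845). Mrps30 rose by 0.55 ± 0.17 and 0.64 ± 0.17 (adjusted p = 0.0386 and 0.0141), and not without PBS libraries 2 and 3 (adjusted p = 0.133 and 0.0709) or with the length trend removed (0.40 and 0.42, adjusted p = 0.0897 and 0.0589). Its Pdx1 gRNA call was lost when any of 8 single libraries was left out, and 37.8% of its exon bases are shared with other genes, mainly B430218F22Rik. Mrpl44, whose protein has a ribonuclease III-like fold, was not called (0.14 ± 0.14 and 0.34 ± 0.14). Mrpl41 was not called either (0.15 ± 0.19 and 0.31 ± 0.19).

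The small subunit binds the messenger RNA and decodes it. Its members summed to 919, 961, 1075 and 1058 CPM in Pdx1 gRNA libraries 1 to 4 and to 1028, 1151, 1018 and 982 CPM in control gRNA libraries 1 to 4, against 826, 819, 858 and 667 CPM in PBS libraries 1 to 4. Virus and PBS libraries did not overlap. Of 26 members, 9 (34.6%) rose with the Pdx1 gRNA and 16 (61.5%) with the control gRNA, beside 11.7% and 16.3% of all genes. Small subunit medians of log2 fold change were 0.35 and 0.47. Leaving out PBS libraries 2 and 3 gave 3 and 9 rises, beside 4.5% and 6.91% of all genes called higher. The ratio of large to small subunit CPM was 2.30 ± 0.07 with the Pdx1 gRNA, 2.32 ± 0.06 with the control gRNA and 2.29 ± 0.07 with PBS (SD, n = 4 each), which differed by less than the SD between libraries.

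Mrps6, the counterpart of bacterial S6 on chromosome 16 (92058270 to 92112227, plus strand), had the largest fold change of the 77 tested members in both comparisons with all libraries. Without PBS libraries 2 and 3, Mrps18b was higher with the Pdx1 gRNA (1.32, against 1.18 for Mrps6) and Mrps18a with the control gRNA (1.34, against 1.28 for Mrps6). With the control gRNA, Mrpl19 was higher with the length trend removed (1.30, against 1.09 for Mrps6), and Mrpl54 and Mrps6 were nearly equal without control gRNA library 3 (1.375 and 1.374). It had 20.5, 20.9, 20.8 and 25.9 CPM with the Pdx1 gRNA, 25.4, 25.1, 24.4 and 20.2 CPM with the control gRNA and 11.9, 7.51, 9.12 and 7.37 CPM with PBS. The lowest virus library was well above the highest PBS library. The log2 fold changes were 1.29 ± 0.17 with the Pdx1 gRNA (edgeR adjusted p = 6.09e-04) and 1.399 ± 0.17 with the control gRNA (adjusted p = 2.84e-04). Of its exon bases, 15.1% are shared with other genes, mainly Slc5a3.

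Mrps28, assigned to the place of bacterial S1, had 38.0, 37.6, 45.1 and 43.7 CPM with the Pdx1 gRNA, 46.0, 55.9, 44.7 and 41.5 CPM with the control gRNA and 33.3, 24.1, 24.7 and 19.2 CPM with PBS. The virus libraries all lay above the PBS libraries. Mrps28 rose by 0.70 ± 0.16 and 0.89 ± 0.16 on the log2 scale (edgeR adjusted p = 0.0108 and 0.00214), the first of which was not called without PBS libraries 2 and 3 (adjusted p = 0.0910). With the length trend removed, Mrps28 stayed called at 0.42 and 0.47 (adjusted p = 0.0294 and 0.0131).

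The other S18-related genes, Mrps18b and Mrps18c, are both placed in the small subunit. Mrps18b had 30.3, 38.7, 37.5 and 49.6 CPM with the Pdx1 gRNA, 34.8, 23.6, 32.5 and 29.6 CPM with the control gRNA and 14.6, 26.1, 25.1 and 16.4 CPM with PBS. It rose by 0.93 ± 0.22 with the Pdx1 gRNA (edgeR adjusted p = 0.0100), where the groups did not overlap, and had 0.56 ± 0.21 with the control gRNA (adjusted p = 0.0625), where they did. Mrps18c had 17.3, 17.9, 14.2 and 14.5 CPM with the Pdx1 gRNA, 20.2, 25.04, 20.5 and 16.6 CPM with the control gRNA and 16.2, 10.6, 12.5 and 10.5 CPM with PBS. In this gene the control gRNA libraries were the ones that cleared PBS, with 0.72 ± 0.18 (adjusted p = 0.00880) against 0.36 ± 0.18 with the Pdx1 gRNA (adjusted p = 0.166). The direct test between the virus groups called neither gene, and without PBS libraries 2 and 3 Mrps18b rose with the control gRNA too (0.94, adjusted p = 0.0238) and Mrps18c did not (0.60, adjusted p = 0.0872). With the length trend removed, Mrps18c had 0.40 with the control gRNA and stayed called (adjusted p = 0.0456). Other genes, mainly Gm16279 and Gm43511, share 30.5% of the exon bases of Mrps18b and 23.2% of those of Mrps18c, and counting did not use strand.

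Mrps22, a mitochondria-specific protein of the small subunit, rose by 0.43 ± 0.13 and 0.48 ± 0.13 (edgeR adjusted p = 0.0324 and 0.0155). The Pdx1 gRNA call of Mrps22 was lost when any of 6 single libraries was left out and the control gRNA call without control gRNA library 1 or 3. Mrps12, the counterpart of S12 at the decoding centre, had 32.0, 34.7, 38.8 and 44.1 CPM with the Pdx1 gRNA, 35.1, 39.5, 38.5 and 29.2 CPM with the control gRNA and 25.8, 43.9, 45.8 and 31.3 CPM with PBS. All groups overlapped, and the estimates were 0.03 ± 0.19 and -0.04 ± 0.19. Without PBS libraries 2 and 3 they were 0.38 and 0.29 and with the length trend removed -0.23 and -0.42, and Mrps12 was called in neither fit. Its divergent neighbour Sars2 had 0.23 and 0.07 and was not called either. Mrps5, another member of the decoding region, was not called (0.23 ± 0.15 and 0.30 ± 0.15). Nor was Mrps36 of the 2-oxoglutarate dehydrogenase complex (0.19 ± 0.17 and 0.40 ± 0.17).

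**Figure D3:**
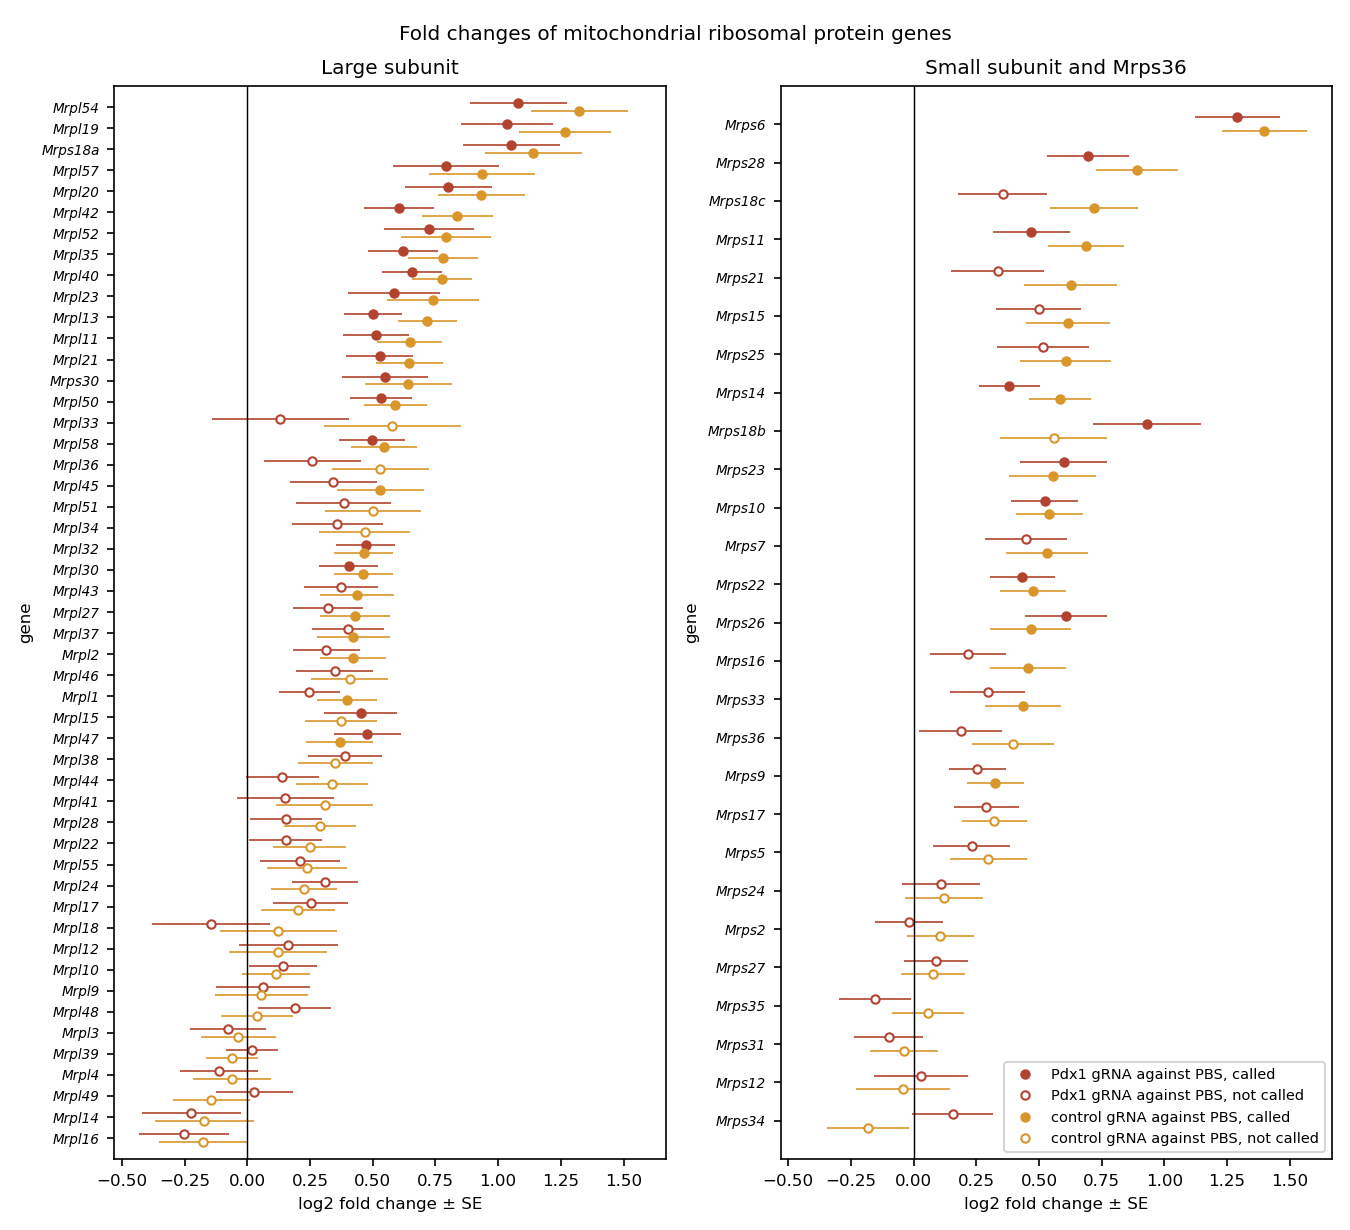
Log2 fold change ± SE of each tested member for Pdx1 gRNA against PBS and control gRNA against PBS, with filled points for called members and open points for the others. All called points lie right of 0, with the largest in Mrps6 (1.29 and 1.399) and Mrpl54 (1.08 and 1.32), and points near 0, such as those of Mrps12 and Mrpl12, are open.

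Called members were found with and without a bacterial counterpart. Of 46 tested members with one, 16 rose with the Pdx1 gRNA and 24 with the control gRNA, with medians of 0.31 and 0.43. Of 30 tested mitochondria-specific members, 13 and 17 rose, with medians of 0.40 and 0.47. Over all genes, 11.7% and 16.3% were called higher. No test of the difference between these sets of members was made. In this split Mrps18a and Mrps18b, although related to bacterial S18, were counted as mitochondria-specific, and Mrps18c as having the counterpart. Divergent neighbours also varied: Fau, a gene for a protein of the cytosolic ribosome 137 bases from Mrpl49, rose by 0.51 with the Pdx1 gRNA and 0.70 with the control gRNA (edgeR adjusted p = 0.0349 and 0.00592), while Mrpl49 itself had 0.03 and -0.14 and was not called. Cyb5rl, 120 bases from Mrpl37, fell by 0.71 and 0.76 (adjusted p = 0.0266 and 0.0139), while Mrpl37 had 0.40 and 0.42 and was called with the control gRNA only (adjusted p = 0.0623 and 0.0397). Twnk, beside Mrpl43, had 0.25 and -0.03 and was not called. With PBS libraries 2 and 3 omitted, neither Fau (adjusted p = 0.188 and 0.0690) nor Cyb5rl (adjusted p = 0.249 and 0.171) was called, nor was Mrpl37 (adjusted p = 0.0790 and 0.0591). These neighbours were named after their values were seen.

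Between the virus groups no member was called, nor was any of the 15219 genes by edgeR, with 918 genes and 0 members at an unadjusted p under 0.05. DESeq2 called 14 genes and limma-voom 0, and no member in either. The median log2 fold change of members for Pdx1 gRNA against control gRNA was -0.09, beside -0.01 over all genes, with 18 positive and 59 negative estimates that ran from -0.45 to 0.37. Control gRNA library 2 was the highest of its group in summed CPM of both subunits, and without it the median was -0.02. In 1 member, Mrps21, all 4 Pdx1 gRNA libraries (46.6 to 52.1 CPM) lay below all 4 control gRNA libraries (52.9 to 75.1 CPM), beside 6.64% of all genes whose virus groups did not overlap, 3.16% lower and 3.48% higher. No member was higher in this way. Mrps21 had a log2 fold change of -0.29 ± 0.18 (edgeR adjusted p = 0.846).

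The members nearest to a difference between the virus groups by unadjusted p were Mrps34, Mrps18b and Mrpl49 on the higher side, with log2 fold changes of 0.34 ± 0.16, 0.37 ± 0.21 and 0.17 ± 0.15, and Mrps18c, Mrpl13 and Mrpl42 on the lower side, with -0.37 ± 0.17, -0.22 ± 0.12 and -0.23 ± 0.14. Their edgeR adjusted p ran from 0.809 to 0.887. Mrps34, a mitochondria-specific small subunit gene, had 36.0, 37.9, 48.9 and 42.7 CPM with the Pdx1 gRNA and 29.6, 32.1, 31.9 and 37.2 CPM with the control gRNA, overlapping at 36.0 and 37.2. Of its exon bases, 77.8% are shared with other genes, mainly Mapk8ip3. A p above the threshold does not show that the groups were alike: an SE of 0.12 to 0.21 leaves room for changes of the size of these estimates.

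Genes around the mitochondrial ribosome were read in the same libraries. Among 5 ribosomal proteins known by other symbols, Chchd1 rose by 0.74 with the Pdx1 gRNA and 0.78 with the control gRNA (edgeR adjusted p = 0.00352 and 0.00183), and the other 4 were not called. Of 26 assembly factors, 2 rose with the Pdx1 gRNA (7.69%) and 4 with the control gRNA (15.4%), shares no higher than the 11.7% and 16.3% of all genes. They included Mrm3, a methyltransferase for the large subunit RNA, with 0.96 and 0.91, and the helicase gene Ddx28, with 1.43 and 1.01. Mrm3 was not called with the Pdx1 gRNA without PBS libraries 2 and 3 (adjusted p = 0.0532). Medians of this list were 0.18 and 0.11, below those of the members. Its summed CPM was 454 to 515 with the Pdx1 gRNA, 447 to 479 with the control gRNA and 375 to 441 with PBS. As with the members, virus and PBS libraries did not overlap in this sum.

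The factors and enzymes that work with the ribosome had calls in both directions. Of all genes, 11.7% were called higher and 10.4% lower with the Pdx1 gRNA, and 16.3% and 15.8% with the control gRNA. The shares called higher were 0% and 21.4% of translation factors and 5.88% and 11.8% of tRNA synthetases. None of 14 translation factors was called with the Pdx1 gRNA, and with the control gRNA 3 rose and 1 fell, with medians of -0.04 and 0.00. Slirp, whose protein stabilises mitochondrial messenger RNAs, had 0.38 with the Pdx1 gRNA (not called) and rose by 0.94 with the control gRNA. Among 17 mitochondrial tRNA synthetases, 1 rose and 1 fell with the Pdx1 gRNA, and 2 rose and 1 fell with the control gRNA. Tars2 rose by 0.68 and 0.77 and Nars2 fell by 0.69 and 0.90, with list medians of 0.00 and -0.06. Polg2, the accessory subunit of the mitochondrial DNA polymerase, fell by 0.62 and 0.75, and 1 of 9 genes of mitochondrial DNA transcription and replication fell with the Pdx1 gRNA and 2 with the control gRNA. In the fit without PBS libraries 2 and 3, Slirp (adjusted p = 0.115 with the control gRNA), Nars2 (0.384 and 0.0926, adjusted p) and Polg2 (0.160 and 0.0713, adjusted p) were not called, Tars2 was called with the control gRNA only, and 1 translation factor rose with the control gRNA.

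The RNAs that the mitochondrial ribosome translates were read next. None of 12 tested mitochondrial messenger RNAs was called in either comparison, with medians of -0.27 with the Pdx1 gRNA and 0.01 with the control gRNA. They summed to 25895 to 57540 CPM with the Pdx1 gRNA, 39462 to 67239 CPM with the control gRNA and 36074 to 73771 CPM with PBS, so the groups overlapped widely. Neither ribosomal RNA, mt-Rnr1 or mt-Rnr2, was called, and selection of polyadenylated RNA captures these incompletely. Nuclear genes of the respiratory chain, 74 in number, had 1 rise and no fall with the Pdx1 gRNA and 10 rises and 2 falls with the control gRNA, with medians of -0.02 and 0.14. Their shares called higher, 1.35% and 13.5%, were below those of all genes, and without PBS libraries 2 and 3 there were 1 and 3 rises and no fall. The summed CPM of the members was 23.7 to 27.6% of that of these genes with the Pdx1 gRNA. It was 23.8 to 25.2% with the control gRNA and 17.5 to 20.5% with PBS, without overlap between virus and PBS libraries.

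Cytosolic ribosomal protein genes had larger fold changes than the members. Of 80 tested, 74 (92.5%) rose in each comparison, beside 11.7% of all genes with the Pdx1 gRNA and 16.3% with the control gRNA. Their medians were 0.97 and 1.11. When PBS libraries 2 and 3 were left out, 42 and 62 rose, with medians of 0.90 and 1.01. In that fit 4.5% and 6.91% of all genes were called higher. Relative to the summed CPM of the cytosolic genes, the members were at 9.63 to 11.3% with the Pdx1 gRNA and 8.49 to 11.9% with the control gRNA, against 14.3 to 18.1% with PBS. The members were thus higher relative to respiratory chain genes and lower relative to cytosolic ribosomal genes in every virus library than in every PBS library.

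**Figure D4:**
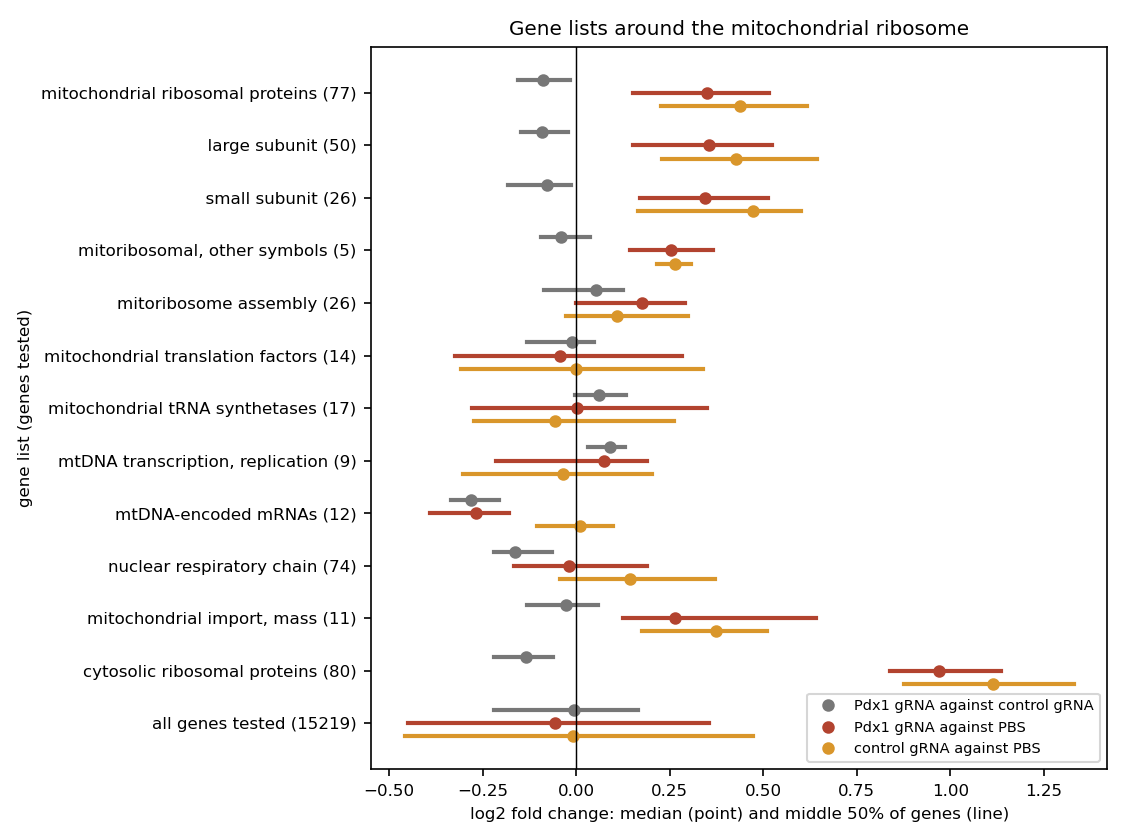
Median log2 fold change (point) and middle 50% of genes (line) for members, their subunits and surrounding gene lists, with the number of tested genes in brackets, for Pdx1 gRNA against control gRNA, Pdx1 gRNA against PBS and control gRNA against PBS. Members (0.35 and 0.44 against PBS) lie between cytosolic ribosomal proteins (0.97 and 1.11) and nuclear respiratory chain genes (-0.02 and 0.14).

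Of 9 regulators of mitochondrial production, 2 rose and 3 fell with the Pdx1 gRNA, and 2 rose and 2 fell with the control gRNA. The shares of all genes called higher and lower were 11.7% and 10.4% with the Pdx1 gRNA and 16.3% and 15.8% with the control gRNA. Myc, a transcription factor that drives ribosome production, rose by 3.54 with the Pdx1 gRNA and 3.22 with the control gRNA (edgeR adjusted p = 1.66e-04 and 2.38e-04). Pprc1, a coactivator of NRF1, rose by 1.03 and 0.49, and Gabpa, the ETS-family subunit of GABP, fell by 0.78 and 0.84. Yy1 had -0.19 with the Pdx1 gRNA (not called) and fell by 0.47 with the control gRNA. Ppargc1a and Ppargc1b, coactivators of mitochondrial production, fell by 1.08 and 1.34 with the Pdx1 gRNA, and had -0.80 and -0.95 with the control gRNA (not called). Nrf1 itself was not called (0.09 and -0.23), and these last 3 were named after their values were seen. Of 11 import and outer membrane genes, 2 rose with the Pdx1 gRNA and 4 with the control gRNA, including the receptor gene Tomm22 (0.66 and 0.83) and the channel gene Tomm40 (0.69 and 0.72). Myc stayed called in both comparisons without PBS libraries 2 and 3, and Pprc1 with the Pdx1 gRNA only. In that fit Gabpa and Yy1 were not called, Ppargc1a and Ppargc1b fell in both comparisons, and Tomm22 and Tomm40 rose with the control gRNA only.

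Markers of cell state and of other cell types were read beside these results, and their part in them was not tested. The counts stand beside 11.7% of all genes called higher and 10.4% lower with the Pdx1 gRNA. With the control gRNA these shares were 16.3% and 15.8%. Of 15 cell cycle genes, 13 rose with the Pdx1 gRNA and 14 with the control gRNA, and their summed CPM was 191 to 289 with the Pdx1 gRNA, 201 to 273 with the control gRNA and 53.0 to 126 with PBS. Of 8 hepatocyte markers, 1 fell with the Pdx1 gRNA and 6 with the control gRNA, with sums of 50190 to 102680, 51347 to 69104 and 81380 to 121437 CPM in Pdx1 gRNA, control gRNA and PBS livers. Of 8 macrophage markers, none rose with the Pdx1 gRNA and 3 with the control gRNA, with sums of 160 to 394, 220 to 555 and 141 to 523 CPM. Of 8 T and NK cell markers, 7 were tested, none was called with the Pdx1 gRNA and 1 rose with the control gRNA, with sums of 3.25 to 9.32, 8.81 to 15.7 and 5.80 to 10.1 CPM. Cholangiocyte markers had sums of 46.0 to 103, 58.9 to 405 and 24.3 to 70.0 CPM, with 0 and 3 of 5 called higher. Neutrophil, B cell and stellate cell markers had no call in either comparison, with 3 of 6 neutrophil markers tested. Of 6 sinusoidal endothelial markers, 3 fell with the Pdx1 gRNA and 2 with the control gRNA, with sums of 71.2 to 138, 85.7 to 176 and 139 to 391 CPM. Every library had 4 of 5 pancreas markers at 0, and the 1 tested was not called. When PBS libraries 2 and 3 were omitted, 5 and 9 cell cycle genes rose, 0 and 1 hepatocyte markers fell, 2 and 1 sinusoidal endothelial markers fell, and no macrophage, T and NK cell or cholangiocyte marker was called. In that fit 1 neutrophil and 1 stellate cell marker fell with the Pdx1 gRNA.

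**Figure D5:**
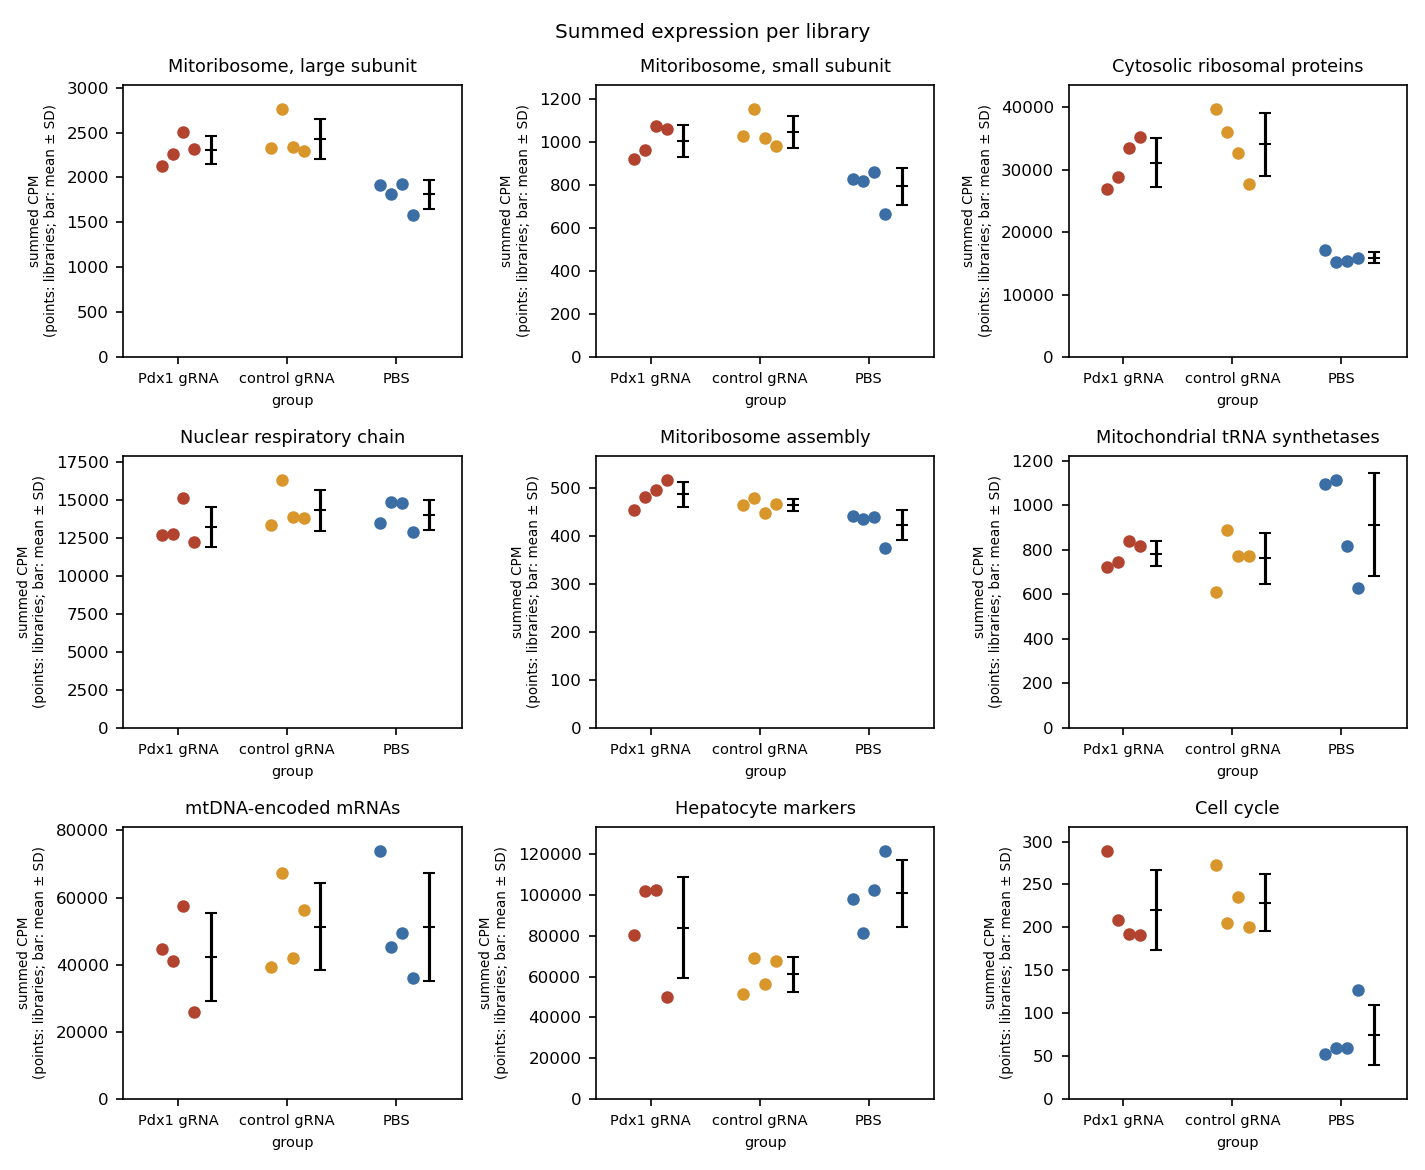
Summed CPM per library (points) with mean ± SD (bars, n = 4) for the mitoribosomal subunits and 7 other gene lists in Pdx1 gRNA, control gRNA and PBS livers. The virus libraries do not overlap PBS for either subunit, mitoribosome assembly, cytosolic ribosomal proteins or cell cycle genes. Those of mitochondrial messenger RNAs and respiratory chain genes overlap PBS.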

How the data were processed

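RNA-seq counts of 50600 genes in 12 mouse liver libraries were used, 4 in each of 3 groups taken from the labels. The deposited counts are raw read pairs per gene, made by the authors with featureCounts 1.4.6-p4 on GENCODE M13 without strand, per the file headers, from reads trimmed with Trimmomatic 0.32 and aligned with STAR 2.4.1a to GRCm38 (mm10), per the submitters' processing notes. Assigned counts per library ran from 11824767 to 22008046. Symbols were matched by gene ID for 50376 genes.

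Genes were kept by filterByExpr with a minimum count of 10 (15219 genes), scaled by TMM and tested in 1 fit of all 12 libraries with edgeR 4.0.16 (robust quasi-likelihood, R 4.3.3), with Benjamini-Hochberg adjustment over all genes tested and a threshold of 0.05. SE is the log2 fold change divided by the square root of F. The fitting code was tested on simulated data. Alternatives used DESeq2 1.42.0, limma 3.58.1, other scalings and filters, and fewer libraries.

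The members, gene lists and tests were chosen with earlier results of these data known. Named members were the 10 largest rises against PBS in each comparison, the 3 smallest p in each direction between the virus groups, the extremes of level, members that failed the filter, and a list chosen by role; exceptions are stated. Sequences shown were chosen after their motifs were seen.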

Additional observations from a re-analysis of the deposited data

Results flagged for a closer look

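Of 117 sets of 4 libraries examined (each named member, the subunit sums and their ratio, in each group), 12 held 1 library that stood apart from the other 3 by Dixon's ratio. Chance gives about 1 in 20 such sets. Among the Pdx1 gRNA libraries, library 4 was highest for Mrpl19, with 37.1 CPM beside 21.9 to 23.6 in the other 3, and for Mrps6, with 25.9 CPM beside 20.5 to 20.9. Pdx1 gRNA library 3 was highest for Mrpl42, with 80.3 CPM beside 61.1 to 63.2, and for Mrps25, with 23.8 CPM beside 18.6 to 18.8.

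Control gRNA library 2 was highest in 6 of the 12. It had 2759 CPM of large subunit genes in sum beside 2290 to 2341 in the other 3 control gRNA libraries, 87.5 CPM of Mrpl2 beside 74.5 to 74.9, and 48.4 CPM of Mrpl34 beside 36.7 to 38.6. It also had 34.0 CPM of Mrpl40 beside 28.5 to 29.3, 37.4 CPM of Mrpl48 beside 29.7 to 30.3, and 38.5 CPM of Mrps35 beside 28.2 to 29.8. Without this library 28 members rose with the control gRNA against PBS, beside 13.3% of all genes called higher. Among the PBS libraries, library 1 was highest for Mrpl54, with 29.1 CPM beside 16.7 to 18.7, and library 4 was lowest for Mrpl35, with 18.9 CPM beside 23.5 to 24.4.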

How the results depend on the processing

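With library sizes only, 56 members were called with the Pdx1 gRNA against PBS (median log2 fold change 0.62) and 63 with the control gRNA against PBS (0.79), beside 24.8% and 36.1% of all genes. With only the 8 libraries compared, 27 were called with the control gRNA against PBS, beside 27.4% of all genes. Omitting PBS libraries 2 and 3 together left 11 and 25 calls in these comparisons, beside 7.9% and 14% of all genes. Leaving out each library in turn gave 18 to 40 members called and medians of 0.25 to 0.38 for Pdx1 gRNA against PBS, 27 to 48 and 0.37 to 0.51 for control gRNA against PBS, and 0 called with medians of -0.12 to -0.02 for Pdx1 gRNA against control gRNA. For Pdx1 gRNA against PBS 18 were called without PBS library 4, beside 17% of all genes, and 19 without Pdx1 gRNA library 4, beside 13.6%. For control gRNA against PBS 27 were called without control gRNA library 3, beside 22.2% of all genes. The highest counts, 40 with the Pdx1 gRNA and 48 with the control gRNA, came without PBS library 1, beside 35.1% and 44.5% of all genes. The cause of these moves was not tested, and fits that left libraries out also held fewer libraries. With the short promoter window the SP motif was in 27.5% of member promoters, beside 22.1% of all promoters and 40.1% of promoters of tested genes. Replicate numbers did not pair the libraries: of 12 pairs with the same number 3 had a correlation over 0.1, and 2 of 12 libraries correlated best with their own number. With the replicate number as a block, 23 members were called with the Pdx1 gRNA against PBS, 35 with the control gRNA against PBS and 0 between the virus groups. In that fit 16.8% and 27.1% of all genes were called against PBS. Over the named members, comparisons and alternatives, 2474 values kept their side of the threshold, 77 lost a call and 41 gained one.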
